A study of Mus musculus with 12 samples.

Results

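Growth hormone is made by the somatotrophs of the anterior pituitary. The 7 genes described here are Gh itself, Cd79b, which lies next to Gh, the receptors Ghrhr and Ghsr, and the nuclear factors Pou1f1, Neurod4 and Rxrg. They were chosen with the pregnancy contrast of these arrays already known, so their levels and calls in the 2 groups are given as a description only. Of 45281 probes on the array 11 carried the name of one of these genes, covering 6 of the 7. A total of 8 probes, again of 6 genes, passed the detection filter, which asked for a detection p-value under 0.05 on at least 4 of 12 arrays, whereas 18626 probes passed it in the whole table. Pou1f1 had no probe under that name in the annotation used and was not analysed here.

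Total RNA came from whole pituitary glands of 8 pregnant dams at e15.5 and 4 non-pregnant (virgin) females, all wild-type C57BL/6J mice, with 1 bead array per animal. Females were 8 weeks old when allocated and the pregnant ones had been mated with C57BL/6J males. They were drawn from more than 1 litter and allocated to the groups at random. The study calls the pregnant females littermates of the virgins, so the groups shared litters. Which litter an animal came from was not known here. Relatedness was therefore not modelled, and each animal was taken as an independent replicate. Whole glands hold every hormone-producing cell type, the posterior lobe, vessels and blood, and in such bulk RNA fewer cells of a type and less RNA per cell cannot be told apart.

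Somatotrophs secrete growth hormone in pulses. Hypothalamic GHRH drives them through its receptor and the cyclic AMP pathway, ghrelin acts through Ghsr, somatostatin restrains them, and the transcription factor POU1F1 switches on Gh and Ghrhr. CD79B is known as the signalling chain Ig-beta of the B cell receptor. In human pituitary, however, the locus control region of growth hormone overlaps the CD79B neighbourhood, and CD79B itself is transcribed in somatotrophs.

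Depth was similar across arrays: between 17217 and 18572 probes were detected on each (38% to 41%). The median raw intensity was 151.1 to 179.6 in pregnant females and 144.8 to 147.6 in non-pregnant females, before normalisation. These ranges did not overlap. Along the first principal component, which held 24.5% of the variance, Non-pregnant replicate 4 scored 0.26, far from the -32.75, -21.3 and -29.73 of its own group, and its closest array by correlation was a pregnant one. A total of 1133 probes were called without it, against 431 with it.

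Gh was lower in pregnant females by a small margin. Its normalised log2 intensity was 14.97 at the lowest, 15.19 at the median and 15.32 at the highest of the 8 pregnant pituitaries, against 15.34, 15.51, 15.55 and 15.45 in the 4 non-pregnant ones. All 8 pregnant values lay below all 4 non-pregnant values, although the highest pregnant value (replicate 1) and the lowest non-pregnant value (replicate 1) nearly met. The mean was 15.18 ± 0.10 (SD, n = 8) in pregnant females, against 15.46 ± 0.09 (SD, n = 4) in non-pregnant females, a log2 change of -0.28 ± 0.09 (SE), or 1.21-fold. This was smaller than the log2 change of 0.32 that a call required, and its adjusted p in limma was 0.106. A larger fall was seen in 10.1% of all probes tested.

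The Gh probe sat at the top of the measurable range, at 85.2% of the brightest signal of its array on average. Quantile normalisation ties such values to their rank on the array. Gh ranked between 13 and 34 on the pregnant arrays, and 12, 2, 1 and 5 on non-pregnant replicates 1 to 4. The brightest probes of the globin genes Hba-a1, Hbb-bs and Hbb-bt reached similar log2 intensities in pregnant females only. They averaged 15.07, 15.01 and 15.07 there, against 13.70, 13.40 and 13.71 in non-pregnant females. The part of globin probes in the Gh ranks was not tested. Raw Gh intensities before normalisation ran from 34256.7 to 42801 in pregnant females and from 41748.7 to 48392.2 in non-pregnant females, so that the raw ranges did overlap. Across all 21 alternative settings the log2 change of Gh stayed negative, between -0.39 and -0.24. The adjusted p of Gh fell below 0.05 in 4 of these settings, but in 0 of those 4 did the change reach the fold minimum.

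Cd79b, the gene next to Gh, moved the other way, and both of its probes were higher in every pregnant pituitary than in any non-pregnant one. The brighter probe read 8.45, 8.76 and 9.03 (lowest, median and highest log2 intensity) in pregnant females, against 7.95, 7.94, 7.78 and 8.18 in non-pregnant females. The lowest pregnant array (replicate 5) was above the highest non-pregnant array (replicate 4). Pregnant females had a mean of 8.75 ± 0.19 (SD, n = 8), against 7.97 ± 0.16 (SD, n = 4) for non-pregnant females, a log2 change of 0.78 ± 0.12 (SE), or 1.72-fold, and only 0.693% of probes rose more.

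The dimmer Cd79b probe read 6.56, 7.06 and 7.45 in pregnant females, against 5.99, 6.13, 5.91 and 6.16 in non-pregnant females. Its log2 change was 0.96 ± 0.14 (SE), or 1.95-fold, and its groups did not overlap either. The size of this change depended on the background correction, since it was 0.42 without one and 0.43 in the authors' processed table, and the probe was still called in both. Both probes were detected on all 12 arrays. The dimmer one was near the detection limit in non-pregnant females, with detection p-values of 0.0203 to 0.0353, and did not pass the stricter detection filter. They also followed each other between animals of the same group, with a correlation of 0.83 over the 12 arrays once group means were removed.

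**Figure D1:**
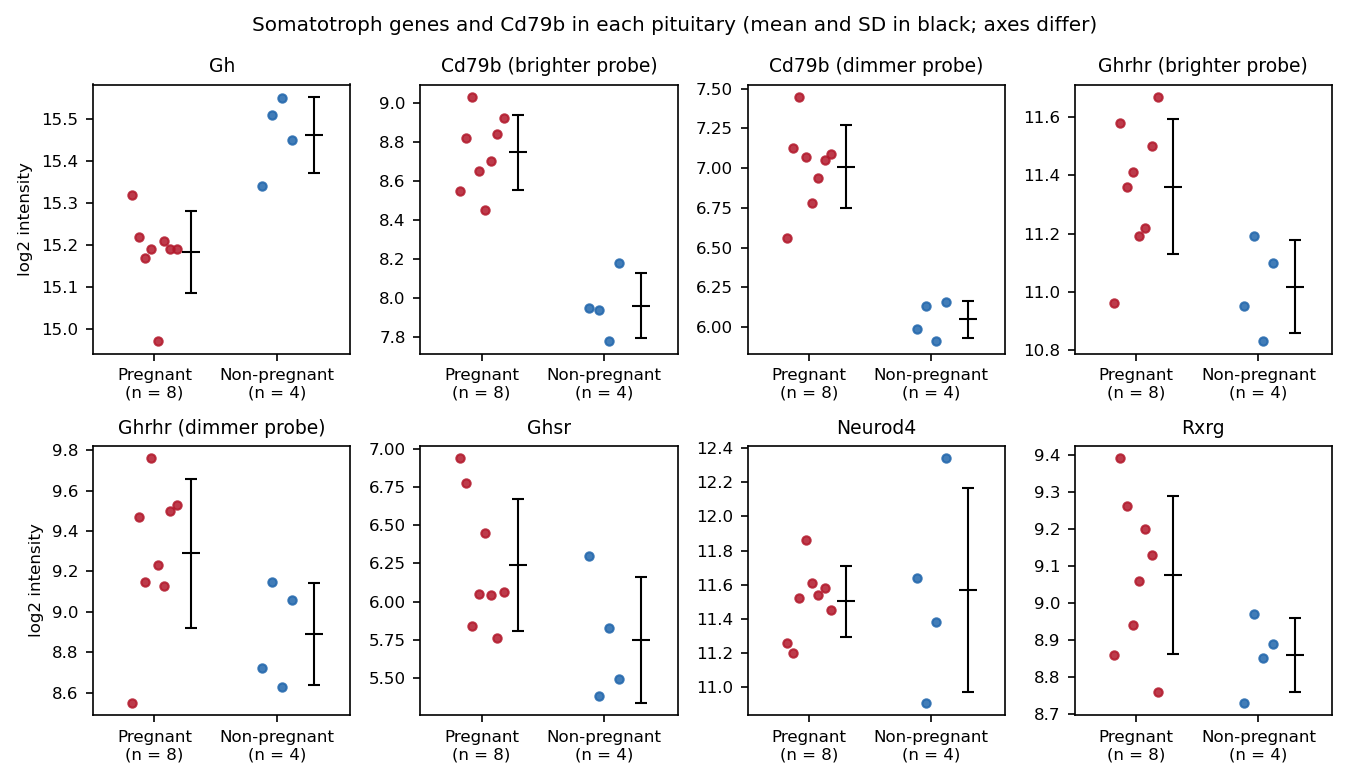
Normalised log2 intensity of each of the 8 probes in the 8 pregnant and 4 non-pregnant pituitaries, 1 dot per array, with the mean and SD in black and a separate vertical axis for each probe. The pregnant dots lie wholly below the non-pregnant dots for Gh and wholly above them for both Cd79b probes, while the groups overlap for Ghrhr, Ghsr, Neurod4 and Rxrg.

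Of the 8 probes, 2 were called, both for Cd79b and both higher. A call needed a log2 change of at least 0.32 in either direction and an adjusted p below 0.05, and 2.31% of all probes met both. By gene this was 1 of 6, against 3.07% of the 10802 named genes tested. Groups did not overlap for 3 of the 8 probes (both Cd79b probes and Gh), against 2.95% of all probes. Since the genes were selected on this contrast, nothing is read from these counts.

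Among the receptors, Ghrhr, through which GHRH acts, had higher means in pregnant females with some overlap. Its brighter probe read 10.96, 11.38 and 11.67 (lowest, median, highest) in pregnant females, against 10.95, 11.19, 10.83 and 11.10 in non-pregnant females. A total of 6 of 8 pregnant values lay above all 4 non-pregnant values, and replicates 1 and 5 did not. The log2 change was 0.34 ± 0.13 (SE), or 1.27-fold, and was not called. The dimmer probe averaged 9.29 ± 0.37 (SD, n = 8) in pregnant females, against 8.89 ± 0.26 (SD, n = 4) in non-pregnant females, with a log2 change of 0.40 ± 0.18 (SE). Here 5 pregnant values lay above all non-pregnant values and 1 (replicate 1) lay below them all. Weighting the arrays by their quality brought the brighter probe past the threshold, at 0.44, the only setting that did so.

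Ghsr, the ghrelin receptor, was near the detection limit. Its single kept probe was detected on 6 of 8 pregnant and 2 of 4 non-pregnant arrays, and its other 2 probes on none. Log2 intensities were 5.76, 6.06 and 6.94 (lowest, median, highest) in pregnant females, against 6.30, 5.38, 5.83 and 5.49 in non-pregnant females. The ranges overlapped, with 3 of 8 pregnant values above all non-pregnant ones, and the log2 change of 0.49 ± 0.23 (SE) was not called. It was 0.19 without background correction and 0.20 in the authors' processed table.

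The nuclear factors did not separate the groups. Neurod4, a basic helix-loop-helix factor of the somatotroph lineage, read 11.20, 11.53 and 11.86 (lowest, median, highest) in pregnant females, against 11.64, 10.91, 11.38 and 12.34 in non-pregnant females. The 4 non-pregnant arrays spanned more than the 8 pregnant ones. Its log2 change of -0.06 ± 0.20 (SE) turned to 0.19 without Non-pregnant replicate 4, which held the highest value. A second Neurod4 probe was detected on no array. Rxrg, a retinoid X receptor, read 8.76, 9.10 and 9.39 in pregnant females, against 8.73, 8.97, 8.85 and 8.89 in non-pregnant females. A total of 5 of 8 pregnant values exceeded all non-pregnant values, with a log2 change of 0.22 ± 0.12 (SE) that was not called.

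To set Cd79b beside the somatotroph genes array by array, relations were examined within the 8 pregnant animals, since any pooled relation would carry the group difference. Gh and Cd79b showed no relation that passed the test there: Pearson's r was 0.27 (exact permutation p = 0.56, adjusted p = 0.885 over 5 relations with Gh) and Spearman's rho was -0.15 (exact permutation p = 0.741). Single arrays set this value: without Pregnant replicate 5, which had the lowest normalised value of both genes, r was -0.72, and without Pregnant replicate 1 it was 0.66. With median scaling in place of quantile normalisation r was -0.14, and Pregnant replicate 5 then had 15.15 for Gh, inside the pregnant range of 15.06 to 15.43. Without the 2 arrays whose Gh lay farthest from the median, r was -0.55. After quantile normalisation Pregnant replicates 4, 7 and 8 shared 1 Gh value (15.19), each at rank 21. Their raw Gh intensities differed, at 34256.7, 38102 and 39486.1. Such ties limit what the relations with Gh can show.

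The other 4 relations with Gh had Pearson's r of -0.07 for Ghrhr, 0.22 for Ghsr, -0.45 for Neurod4 and -0.11 for Rxrg, with exact permutation p of 0.885, 0.627, 0.277 and 0.819 and an adjusted p of 0.885 for each. Spearman's rho was -0.02, 0.46, -0.63 and 0.00, with exact permutation p of 0.979, 0.26, 0.102 and 1. Without the 2 arrays farthest from the Gh median, Pearson's r was 0.05, 0.78, -0.51 and 0.37. Single arrays set several of these values. Without Pregnant replicate 1, r was 0.56 for Ghrhr, -0.25 for Ghsr and 0.16 for Rxrg, whereas without Pregnant replicate 5, r was 0.83 for Ghsr, with an adjusted exact permutation p of 0.0357. Median scaling gave 0.82 for Ghsr over all 8 arrays, with an adjusted exact permutation p of 0.0565.

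Between Cd79b and Ghrhr, a pair examined only after the values had been seen, Pearson's r over the 8 pregnant arrays was 0.67 (exact permutation p = 0.0665, adjusted p = 0.266 over 4 relations with Cd79b) and Spearman's rho was 0.67 (exact permutation p = 0.0831). It did not pass the test. Leaving out any single pregnant array gave r between 0.60 and 0.85, and r was 0.91 without the 2 arrays whose Cd79b lay farthest from the median. With Ghsr, Neurod4 and Rxrg, Cd79b had Pearson's r of -0.54, -0.14 and 0.27, with exact permutation p of 0.168, 0.736 and 0.513. For Rxrg r was 0.66 without Pregnant replicate 8, 0.08 without Pregnant replicate 3 and 0.03 with median scaling. Spearman's rho for these was -0.57, -0.31 and 0.29, with exact permutation p of 0.151, 0.462 and 0.501.

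**Figure D2:**
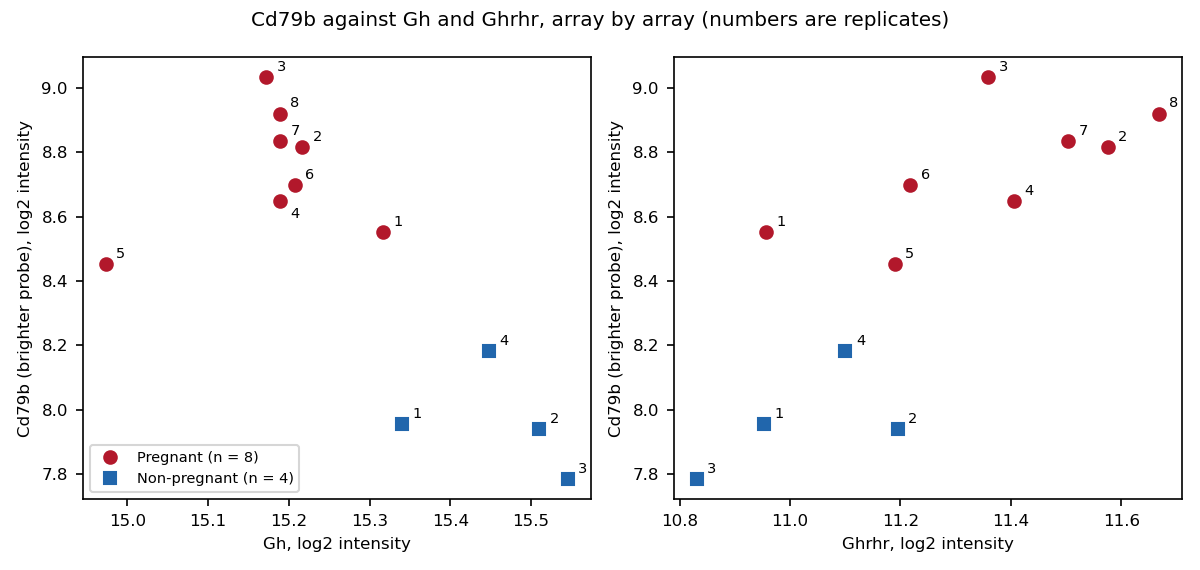
Log2 intensity of the brighter Cd79b probe (vertical) against Gh (left) and against the brighter Ghrhr probe (right), 1 symbol per array numbered by replicate, with pregnant females as circles and non-pregnant females as squares. The groups separate along Gh and along Cd79b, but within the 8 pregnant arrays Cd79b shows r = 0.27 with Gh, which rests on replicates 1 and 5, and r = 0.67 with Ghrhr.

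Over all 12 arrays, after removal of the group means, the genes whose pattern was most like that of Cd79b among 10801 named genes were 3110082I17Rik (r = 0.93), Lmf2 (r = 0.89), Golt1a (r = 0.88), Eef1aknmt (r = 0.88) and Etf1 (r = 0.87). For Gh they were Hlcs (r = 0.87), Doxl2 (r = 0.86), Cdon (r = 0.86), Dennd6b (r = 0.86) and Fam160b1 (r = 0.84). None of these 10 was called between pregnant and non-pregnant females. No other gene of the 7 appeared in either list, and these r values are the highest of many and are given as a description.

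Because Cd79b is a B cell gene, the markers of B cells were measured on the same arrays. Of 29 B cell markers 24 had a named probe, and 20 of these were detected on no array in either group, including the defining markers Ms4a1 (the CD20 antigen) and Pax5 (the B lineage transcription factor), as well as Cd22 and Blk. The defining marker Cd79a had no probe under that name and was not analysed here, nor were Ighm, Ighd and Igkc. RNA of these 20 B cell markers was not detected, within the sensitivity of each probe, while Cd79b was detected on all 12 arrays. The cell source of the Cd79b RNA was not tested.

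Of the 4 B cell markers that passed the detection filter, the 3 class II genes are not limited to B cells. All 4 were detected on all 12 arrays, and none was called (median log2 change -0.31, against 0.00 over all probes). With 3.07% of all named genes called, a count of 0 among 4 does not set them apart from other genes. They were the class II antigen presentation genes Cd74 (-0.32 ± 0.09 (SE), adjusted p = 0.0827 in limma), H2-Aa (-0.52 ± 0.16, adjusted p = 0.0998) and H2-Ab1 (-0.30 ± 0.11, adjusted p = 0.163), and Cd72, a B cell surface receptor (0.12 ± 0.23, adjusted p = 0.841). These values are of the brightest probe of each gene. The other H2-Ab1 probes were at -0.51 ± 0.14 (adjusted p = 0.0694) and -0.33 ± 0.13 (adjusted p = 0.222). Those of Cd74 were at -0.17 ± 0.11 and -0.15 ± 0.09. The 3 class II genes thus had lower means in pregnant females. Summed over the 24 markers, linear intensity ran from 5807 to 7031 (median 6682) in pregnant females and from 7477 to 9621 (median 7745) in non-pregnant females. Between 86.1% and 91.6% of this sum came from the 3 class II genes on each array, so its separation of the groups is that of those genes. The sum of the other 21 markers was 780.4 to 931.8 (median 800.9) in pregnant females and 738.4 to 815.6 (median 794.6) in non-pregnant females, with overlap. Of these 21 markers 20 were detected on no array, and their part of the sum is background signal. Its overlap therefore cannot show whether B cell RNA differed between the groups.

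Red cell markers, in contrast, were higher in pregnant females. All 5 red cell markers that passed the filter were called higher, against 3.07% of all named genes called in either direction. Slc4a1 was detected on all 8 pregnant arrays but on only 1 of 4 non-pregnant arrays. It thus passed the filter only through the group where it was higher. Under the stricter detection filter 4 of the markers were called, without Slc4a1. Among the 5 were Alas2 of erythroid haem synthesis (2.58 ± 0.40 (SE), adjusted p = 0.00331 in limma) and the alpha globin Hba-a1 (1.38 ± 0.15, adjusted p = 0.000226). The summed intensity of 6 red cell markers was 86891 to 131637 (median 102648) in pregnant females and 33168 to 42194 (median 38540) in non-pregnant females. Of 12 other white cell markers, 4 passed the filter and 1 was called, against the same 3.07%. This was Lyz2, the macrophage lysozyme, which by 1 of 2 probes fell by 1.05 on the log2 scale (adjusted p = 0.0337 in limma). That call was lost without any 1 of Pregnant replicates 2, 3, 4 or 7 or Non-pregnant replicates 1 or 3, when 0 were called. Ptprc, which encodes the common white cell antigen CD45, was detected on no array. The summed intensity of the white cell list overlapped, at 2671 to 3786 (median 3162) in pregnant females and 2857 to 5497 (median 3519) in non-pregnant females. Laptm5, the brightest gene of that list, weighs most in this sum. Its mean log2 intensity was 10.9 in pregnant and 11.1 in non-pregnant females. The part of blood RNA in the Cd79b difference was not tested beyond these values.

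**Figure D3:**
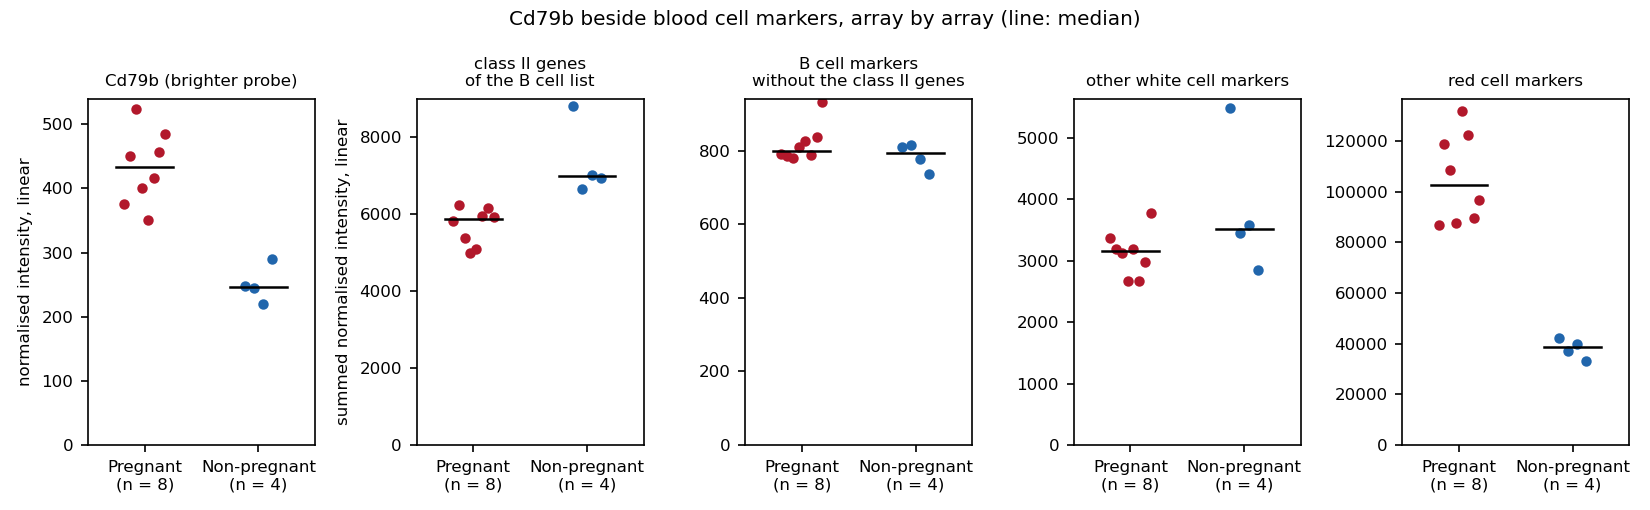
Linear normalised intensity of the brighter Cd79b probe and the summed intensity of the 3 class II genes of the B cell list, its other 21 markers, 12 other white cell markers and 6 red cell markers, 1 dot per array, with the group median as a line and vertical axes that start at 0. Cd79b and the red cell sum are higher in every pregnant array, the class II sum is lower in every pregnant array, and the sums of the other B cell markers and of the other white cell markers overlap. Of the other 21 B cell markers 20 were detected on no array.

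The chromosomal neighbourhood was then examined for other genes that moved with Cd79b. In RefSeq gene order no protein-coding gene lies between Gh and Cd79b. Of the 15 protein-coding genes on either side, 30 in all, 27 had a named probe and 18 passed the filter. None of the 18 was called in either direction, and with 3.07% of all named genes called, a count of 0 among 18 does not set the neighbours apart from other genes. Their log2 changes ran from -0.40 (Strada) to 0.28 (Ern1), with a median of 0.05. The smallest adjusted p among the brightest probes of these genes was 0.25 in limma.

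Nearest to Gh on its outer side, Tcam1 had 3 probes of which none passed the filter, and the next gene, Smarcd2, a subunit of SWI/SNF chromatin remodelling complexes, had a log2 change of -0.01 ± 0.11 (SE, adjusted p = 0.971). Beyond Cd79b, the muscle sodium channel gene Scn4a had no named probe. The nearest measured gene there was Icam2, an endothelial and white cell adhesion molecule, at -0.09 ± 0.14 (adjusted p = 0.798). Ern1, a sensor of unfolded proteins in the endoplasmic reticulum, was at 0.28 ± 0.13 (adjusted p = 0.291). It was the single neighbour called without Non-pregnant replicate 4 or with arrays weighted by quality (1 gene in each case).

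**Figure D4:**
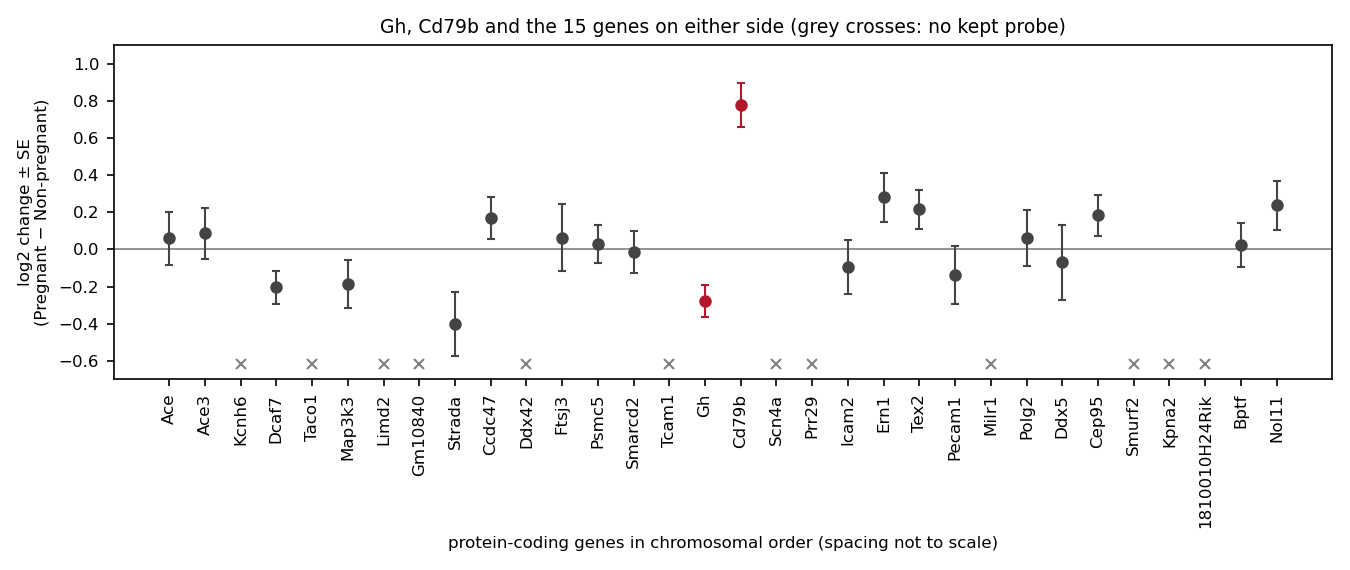
Log2 change with SE (pregnant minus non-pregnant) of the brightest probe of Gh and Cd79b (red) and of the 15 protein-coding genes on either side (dark grey), in chromosomal order and not to scale, where grey crosses mark genes with no kept probe. Cd79b stands at 0.78 and Gh at -0.28, while the 18 measured neighbours lie between -0.40 and 0.28.

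The wider growth hormone pathway was followed through 3 lists with 60 genes in all, of which 34 had a probe that passed the filter. Of these, 0 were called higher and 2 lower, Cacna1d and Lhx3, against 3.07% of all named genes called in either direction. Neither call rested on every probe of its gene.

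Among 21 ligands and receptors of growth hormone secretion, 8 were measured, with a median log2 change of -0.17, and none was called. With 3.07% of all named genes called, a count of 0 among 8 does not set this list apart. Ghrh, Sst and Ghrl, which encode the hypothalamic and gastric ligands, were detected on no array. Sstr2, a somatostatin receptor that restrains growth hormone release, read 6.87, 7.01 and 8.55 (lowest, median, highest) in pregnant females, against 8.02, 8.16 and 9.13 in non-pregnant females. Of the pregnant arrays only replicate 8 (8.55) lay within the non-pregnant range, and the other 7 lay below it. Its log2 change of -1.04 ± 0.30 (SE) had an adjusted p of 0.0791 in limma, and Sstr2 was the 1 gene called when Pregnant replicate 8 was left out. Sstr5, another somatostatin receptor (0.34 ± 0.19, adjusted p = 0.391), the growth hormone receptor Ghr (-0.19 ± 0.10, adjusted p = 0.373) and the growth factor Igf1 (-0.24 ± 0.16, adjusted p = 0.477) were not called.

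In the cyclic AMP and calcium pathway downstream of the GHRH receptor, 14 of 18 genes were measured, with a median log2 change of -0.02. The calcium channel gene Cacna1d was called by 1 of its 3 probes, which averaged 5.82 ± 0.27 (SD, n = 8) in pregnant females, against 6.75 ± 0.36 (SD, n = 4) in non-pregnant females, a log2 change of -0.93 ± 0.17 (SE, adjusted p = 0.00825 in limma). Its other 2 probes stood at -0.08 ± 0.12 and 0.00 ± 0.24, and Cacna1d lost its call under the stricter detection filter and with probes averaged per gene. Gnas, which encodes the stimulatory G protein alpha subunit, had 7 kept probes, none called: the brightest was at -0.01 ± 0.13 and that of smallest p at -0.91 ± 0.24 (adjusted p = 0.0655). Prkar2b, a regulatory subunit of protein kinase A, was at 0.34 ± 0.10 (adjusted p = 0.0755), the catalytic subunit Prkacb at -0.24 ± 0.10 (adjusted p = 0.238) and the cyclic AMP responsive factor Creb1 at -0.48 ± 0.20 (adjusted p = 0.238). The number of genes called in this list ran from 1 to 3 when single arrays were left out. It was 3 without Pregnant replicate 1, and 2 without Non-pregnant replicates 1, 2 or 4, when Gnas was also called.

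Among transcription factors listed for the POU1F1 lineage, 12 of 21 were measured. Their median log2 change was -0.20, against -0.005 over all named genes, and 9 of the 12 were below 0. The list also holds factors of other pituitary cells, such as Neurod1, which the study places in cells becoming corticotrophs. Its values are therefore not those of the POU1F1 lineage alone. Lhx3, a LIM homeodomain factor that the POU1F1 lineage requires, was the gene called. The 2 called Lhx3 probes averaged 9.58 ± 0.07 and 9.03 ± 0.30 (SD, n = 8) in pregnant females, against 10.00 ± 0.15 and 9.64 ± 0.13 (SD, n = 4) in non-pregnant females. Both fell with no overlap between groups, with log2 changes of -0.42 ± 0.09 (SE, adjusted p = 0.0219 in limma) and -0.61 ± 0.15 (adjusted p = 0.0447).

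The brightest Lhx3 probe did not pass the threshold (-0.34 ± 0.11, adjusted p = 0.12), nor did the dimmest (-0.38 ± 0.15, adjusted p = 0.194), so that all 4 probes had lower means in pregnant females and 2 were called. The Lhx3 call was lost without Non-pregnant replicate 2 or without Non-pregnant replicate 3, when 0 genes of the list were called. Insm1, a zinc finger factor of endocrine cells, read 11.33 to 11.76 in pregnant females and 11.52 to 12.34 in non-pregnant females and narrowly missed the threshold (-0.54 ± 0.14, adjusted p = 0.0523). Gata2, a factor of thyrotrophs and gonadotrophs, was at -0.44 ± 0.18 (adjusted p = 0.209), Isl1 at -0.30 ± 0.12 (adjusted p = 0.198) and Neurod1 at -0.49 ± 0.21 (adjusted p = 0.241).

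**Figure D5:**
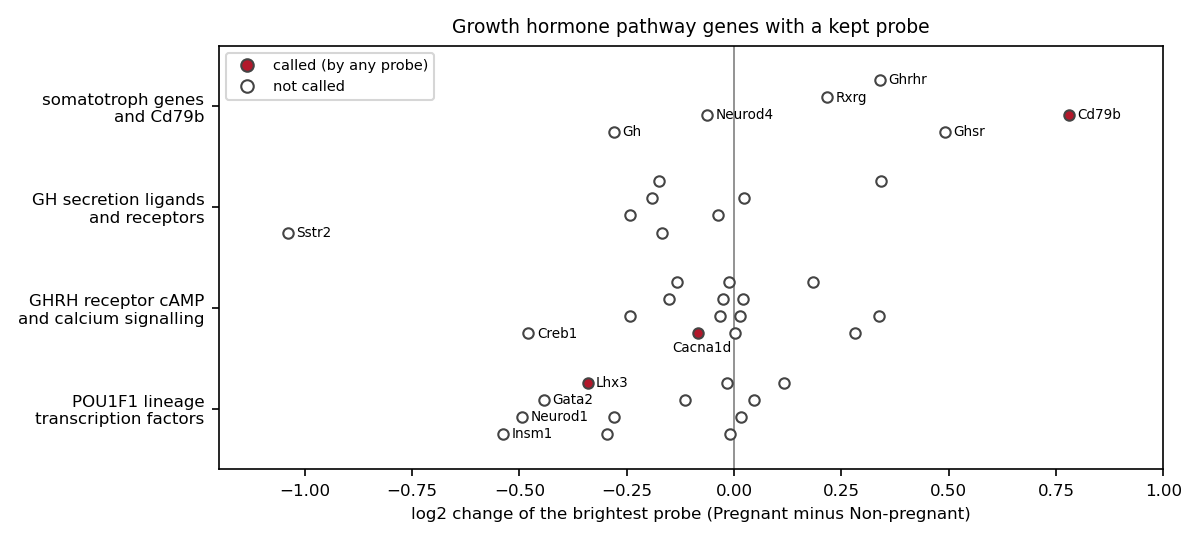
Log2 change (pregnant minus non-pregnant) of the brightest probe of each measured gene among the somatotroph genes with Cd79b and in the 3 growth hormone pathway lists, 1 circle per gene, filled where any probe of the gene was called. Only Cd79b is filled on the right, while Cacna1d and Lhx3 are filled at -0.08 and -0.34, since their calls came from probes other than the brightest.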

How the data were processed

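Values came from whole pituitary RNA of 8 pregnant and 4 non-pregnant mice on MouseWG-6 v2.0 bead arrays. For each array the authors deposited raw (non-normalised) values of 45281 probes, a linear signal intensity and a detection p-value, where the deposited p-value compares a probe with negative control beads. They also deposited a processed table, made with lumi (version not stated) by variance stabilisation and quantile normalisation per the methods. Its values are linear intensities, and log2 of it served as an alternative.

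From the raw intensities, limma 3.58.1 under R 4.3.3 was used for normexp background correction (offset 16). The negative controls it needs were inferred from detection p-values. Arrays were then quantile normalised and log2 transformed. Probes with a detection p-value under 0.05 on at least 4 of 12 arrays were kept (18626). Symbols came from the platform annotation, updated through the RefSeq table of GRCm38.p6, which also gave gene order. No coordinates are printed because no source used here names the annotation's build. Of kept probes 16013 had 1 gene name and 2613 had none.

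Groups were compared with lmFit and eBayes, two-sided, with Benjamini-Hochberg adjustment over the 18626 probes. A probe was called when its adjusted p was below 0.05 and its log2 change at least 0.32 in size, the fold minimum of the study's methods. A gene was called by any probe. Log2 changes are pregnant minus non-pregnant. Relations used the brightest probe of each gene, with two-sided exact permutation tests. The fit was tested on simulated data. Array number limits the precision.

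The 7 genes, the gene lists and the tests were chosen with earlier results of these data known. Named were the 7 genes, and of each list every called gene or otherwise up to 4 of smallest p, the nearest measured neighbour on either side of the locus, and the 5 genes most like Cd79b and Gh. Exceptions, named after their values were seen, are undetected genes, Strada, Ern1, the defining B cell markers, the red cell examples and the other 2 Cacna1d probes. Alternatives covered background, scaling, filters, eBayes settings, array weights, probe averaging, a replicate block and leaving out each array. The split of the B cell sum and the relations with Cd79b other than that with Gh were added after seeing the data. The bead chip could not be used as a block, since the headers used here do not give it. The replicate numbers, shared by both groups as 1 to 4, showed correlations of deviations between 0.0145 and 0.203 and were not taken to pair animals. A listed B cell marker is not reported here.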

Additional observations from a re-analysis of the deposited data

Results flagged for a closer look

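Of 16 sets of values examined (8 probes in each of the 2 groups), 1 held an array far from the others. Gh in Pregnant replicate 5 was 14.97, the lowest log2 intensity of its group, at a distance from the nearest array (15.17) of 0.578 of the whole range up to 15.32. This distance was seen after quantile normalisation only: the raw intensity of that array, 39265.4, was near the pregnant median of 39202.2, and with median scaling its value of 15.15 lay inside the pregnant range of 15.06 to 15.43. On that array Gh had rank 34, and the summed red cell intensity (131637) was the highest of all arrays. A link between these was not tested. Chance marks about 1 in 20 such sets. The same array also had the lowest reading of the brighter Cd79b probe in pregnant females, both after quantile normalisation (8.45) and with median scaling (8.51). After quantile normalisation the relation between Gh and Cd79b changed sign without this array, as given above. The log2 change of Gh kept its sign without any single array (-0.32 to -0.25).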

How the results depend on the processing

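Cd79b was called in every setting by at least 1 probe. Its brighter probe had log2 changes of 0.56 to 0.87 and was called in 20 of 21 settings. Since Cd79b was chosen with this contrast known, these calls describe the processing and do not test the difference. With the replicate number as a block it stood at 0.80 (adjusted p = 0.0704) while the dimmer probe was still called (1.01). The dimmer probe ran from 0.42 (no background correction) to 1.03 and Ghsr from 0.19 (likewise) to 0.67. The block lowered the probes called to 127, called 1 gene of growth hormone secretion (Sstr2) and 0 lineage factors, and changed no other list count. Without background correction, in the authors' processed table, under the stricter detection filter and with trended robust eBayes, 2 genes were called in the cyclic AMP list (not Cacna1d under the stricter filter, where they were Gnas and Prkar2b) and 2 lineage factors (Lhx3 and Insm1). In the first 3 of these 1 B cell marker was called (H2-Ab1, lower), and with trended robust eBayes 2 (Cd74 and H2-Ab1). Array weights gave 1577 probes, 2 of the 7 genes (Cd79b and Ghrhr, 0.44), 4 cyclic AMP genes, 2 lineage factors, 1 B cell marker (H2-Aa) and 1 neighbour (Ern1), and Neurod4 at 0.072. With no detection filter 0 other white cell markers were called, and with probes averaged per gene 0 cyclic AMP genes and 2 lineage factors. Median scaling turned r between Gh and Cd79b to -0.14 and between Gh and Rxrg to 0.14, and moved it to 0.82 for Gh and Ghsr and -0.35 for Gh and Ghrhr. The cause of these shifts was not tested.

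Leaving out single arrays gave 149 to 1133 called probes (149 without Non-pregnant replicate 3, 183 without Non-pregnant replicate 1, 285 without Pregnant replicate 7, 1133 without Non-pregnant replicate 4). It gave 0 to 1 genes of growth hormone secretion, 1 to 3 cyclic AMP genes, 0 to 2 lineage factors, 1 to 2 other hormones, 0 to 1 other white cell markers, 4 to 5 red cell markers and 0 to 1 neighbours. Log2 changes ran from 0.72 to 0.85 for Cd79b, 0.28 to 0.40 for Ghrhr, 0.37 to 0.67 for Ghsr, -0.28 to 0.19 for Neurod4 and 0.17 to 0.26 for Rxrg. Within pregnant females r with Gh ran from -0.72 to 0.66 for Cd79b, -0.74 to 0.56 for Ghrhr, -0.25 to 0.83 for Ghsr, -0.66 to -0.24 for Neurod4 and -0.29 to 0.16 for Rxrg, and r of Cd79b with Neurod4 from -0.41 to 0.00092 and with Rxrg from 0.08 to 0.66. Ghsr and, in non-pregnant females, the dimmer Cd79b probe sit near the detection limit, and Gh sits near the top of the signal range. This limits how well their fold changes can be measured.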

Other observations

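Lhb, the beta subunit of luteinising hormone, fell to 10.92 ± 0.18 (SD, n = 8) in pregnant females, against 11.83 ± 0.12 (SD, n = 4) in non-pregnant females (log2 change -0.91 ± 0.11, adjusted p = 0.000508 in limma). It was the single called gene among the 6 other hormones, against 3.07% of all named genes called. Fshb, the beta subunit of follicle stimulating hormone, averaged 10.59 ± 0.50 in pregnant and 8.98 ± 1.57 in non-pregnant females and was not called (1.61 ± 0.48, adjusted p = 0.0943), but it was called without Non-pregnant replicate 2, when 2 hormones were. The other very bright hormone probes, which like Gh sit near the top of the signal range, were not called, with Prl at -0.16 ± 0.10 (adjusted p = 0.458), Cga at -0.21 ± 0.10 (adjusted p = 0.279), Pomc at -0.03 ± 0.10 (adjusted p = 0.91) and Tshb at 0.12 ± 0.11 (adjusted p = 0.62).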
